A study of Mus musculus with 8 samples.

Results

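The interleukin-1 (IL-1) family and inflammasome genes described here are 10 genes given by name, of 32903 genes in the RNA profiles of isolated mouse Kupffer cells, the macrophages that reside in the liver. They are the ligand genes Il1a, Il1b and Il18, the receptor antagonist Il1rn, the co-receptor Il1rap, the sensor Nlrp3, the adaptor Pycard, the caspases Casp1 and Casp4, and the pore protein gene Gsdmd. RefSeq transcript entries were assigned to genes by accession without version, and their TPM (a length-corrected share of all transcripts in a library, scaled to a fixed total) were summed per gene. All 10 genes were found, and all 10 passed the filter of at least 1 TPM in at least 3 libraries.

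The 3 CCl4 libraries came from wild-type mice, with the tissue labelled as liver fibrosis, after 8 weeks of carbon tetrachloride in corn oil, dosed at 0.75 mL/kg on 3 occasions weekly. The 5 naive libraries came from wild-type mice labelled as untreated, so that the toxin and its oil vehicle cannot be told apart. The sources used here name neither strain nor age. The CCl4 libraries are numbered 1, 2-4 and 3, and the labels leave unsaid whether 2-4 was a pool. Nothing states that the libraries are different animals, and what each p-value rests on is the variation from library to library, which may be technical.

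IL-1 alpha and IL-1 beta are cytokines that bind the same receptor, IL1R1, which signals once the co-receptor IL1RAP joins it. IL-1 alpha is active as its precursor and acts as an alarm signal from damaged cells, whereas the precursors of IL-1 beta and IL-18 are inactive until caspase-1 cleaves them. Caspase-1 is switched on inside inflammasomes, in which a sensor such as NLRP3 recruits the adaptor ASC, encoded by Pycard. The same caspase, and caspase-4 (also called caspase-11 in the mouse), cleave gasdermin D, whose fragment forms pores in the plasma membrane. Kupffer cells are among the macrophages in which this machinery is known to work, and transcript levels do not report cleavage.

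Il1a (chr2:129299609-129310186) and Il1b (chr2:129364569-129371164) lie close together on chromosome 2, with 54382 bases and 2 other annotated genes between them, and they differed in opposite directions between the groups. Nlrp3 (chr11:59541569-59566955) had the largest rise among the 10 genes. Gene positions are from the RefSeq table of GRCm38.p6. The 250 bases before the annotated starts of these 3 genes are shown, from the RefSeq promoter table of the same build, which held a window for 9 of the 10 genes. The starts used for Il1a and Il1b, and the second start of Nlrp3, lie inside the gene spans given above. Most of the Il1a window, a short part of the Il1b window and all of the second Nlrp3 window therefore lie inside those spans. Capitals mark matches, on either strand, to any of 4 patterns. The first is the promoter box bound by TBP, searched as TATAAA. The others are the AP-1 site, searched as TGANTCA, a loose kappaB pattern, searched as 3 G, any 5 bases and 2 C, and the PU box, searched as GAGGAA.
Il1a, chr2:129309973-129310222, minus strand: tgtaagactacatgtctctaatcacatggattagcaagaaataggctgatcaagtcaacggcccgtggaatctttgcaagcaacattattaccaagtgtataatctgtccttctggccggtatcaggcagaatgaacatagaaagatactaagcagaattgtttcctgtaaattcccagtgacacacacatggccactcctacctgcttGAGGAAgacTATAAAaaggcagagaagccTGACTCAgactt
Il1b, chr2:129371140-129371389, minus strand: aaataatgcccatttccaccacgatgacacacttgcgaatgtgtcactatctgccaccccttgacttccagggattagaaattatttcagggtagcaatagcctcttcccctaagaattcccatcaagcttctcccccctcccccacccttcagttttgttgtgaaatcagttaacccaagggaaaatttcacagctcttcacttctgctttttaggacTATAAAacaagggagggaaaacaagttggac
Nlrp3, first start, chr11:59541319-59541568, plus strand: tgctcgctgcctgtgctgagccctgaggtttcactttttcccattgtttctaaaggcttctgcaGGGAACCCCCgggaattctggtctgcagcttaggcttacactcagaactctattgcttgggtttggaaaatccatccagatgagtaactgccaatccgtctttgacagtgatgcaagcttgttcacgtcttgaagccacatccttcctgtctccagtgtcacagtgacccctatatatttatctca
Nlrp3, second start, chr11:59542436-59542685, plus strand: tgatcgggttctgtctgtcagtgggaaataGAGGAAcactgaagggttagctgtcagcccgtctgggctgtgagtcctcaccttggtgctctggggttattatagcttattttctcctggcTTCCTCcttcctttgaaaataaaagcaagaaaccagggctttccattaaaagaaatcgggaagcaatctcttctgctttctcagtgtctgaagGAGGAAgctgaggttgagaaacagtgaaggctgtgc
Both IL-1 ligand genes had this promoter box at nearly the same place, beginning 32 bases before the start of Il1a and 31 bases before that of Il1b, and 12.4% of the 32817 windows of this length held TATAAA. The AP-1 pattern was found 12 bases before the start of Il1a, a pattern present in 6.75% of windows, and was not found in the window of Il1b. The PU box lay 41 bases before the start of Il1a and 3 times in the second Nlrp3 window, against 23.3% of all windows, and the kappaB pattern, present in 45.8% of windows, occurred once in the first Nlrp3 window. No pair of these 4 patterns overlapped in the printed windows. These matches describe letters and do not show that a factor was bound.

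Naive replicate 5 stood apart from the other naive libraries. Its correlation with them across genes was 0.943 to 0.951, and with the CCl4 libraries 0.878 to 0.888 (Pearson's r over genes, which are not independent replicates). The CCl4 libraries carried less of the labelled cell type's markers, since 7 of 7 Kupffer cell genes were lower, with a summed level of 246 to 328 TPM in CCl4 and 2278 to 4886 TPM in naive libraries. None of these 7 was absent, and Clec4f, a lectin restricted to Kupffer cells in the mouse, was still 65.6 to 87.2 TPM in CCl4 libraries, against 878 to 1928 TPM in naive ones. Monocyte markers summed to 801 to 1146 TPM in CCl4 and 144 to 269 TPM in naive libraries (5 of 8 tested genes higher), and naive replicate 5 had the 269 TPM. Markers of sinusoidal endothelium summed to 200 to 525 TPM in CCl4 and 5030 to 9632 TPM in naive libraries (9 of 9 lower), with the lowest naive sum in replicate 5. Of the other lists, lower genes were 3 of 6 for hepatocytes and 2 of 6 for T and NK cells, dendritic cells had 2 of 5 higher and 2 lower, stellate cells 1 of 5 higher and 1 lower, macrophages in general 2 of 7 higher and 1 lower, and B cells 0 of 4 either way. Over all genes tested 15.3% were higher and 22.5% lower. In such bulk RNA, fewer cells of a type and less RNA per cell cannot be told apart.

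Of the 10 genes, 3 were higher in CCl4 libraries (Il1b, Nlrp3 and Gsdmd) and 1 was lower (Il1a) at an adjusted p under 0.05 by limma, fitted to all 15629 genes tested. The other 6 did not pass the test. Among all genes tested 37.8% were called, 15.3% higher and 22.5% lower, so that 4 calls among 10 genes is near the share found anywhere in these profiles. Il1a, Nlrp3 and Gsdmd, 3 of the 10, had groups without overlap, beside 36.9% of all genes. The median log2 fold change of the 10 genes was 0.19, against -0.06 for all genes tested. Fold changes below are CCl4 minus naive of log2(TPM + 1), a scale on which low genes appear to change less than they did.

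**Figure D1:**
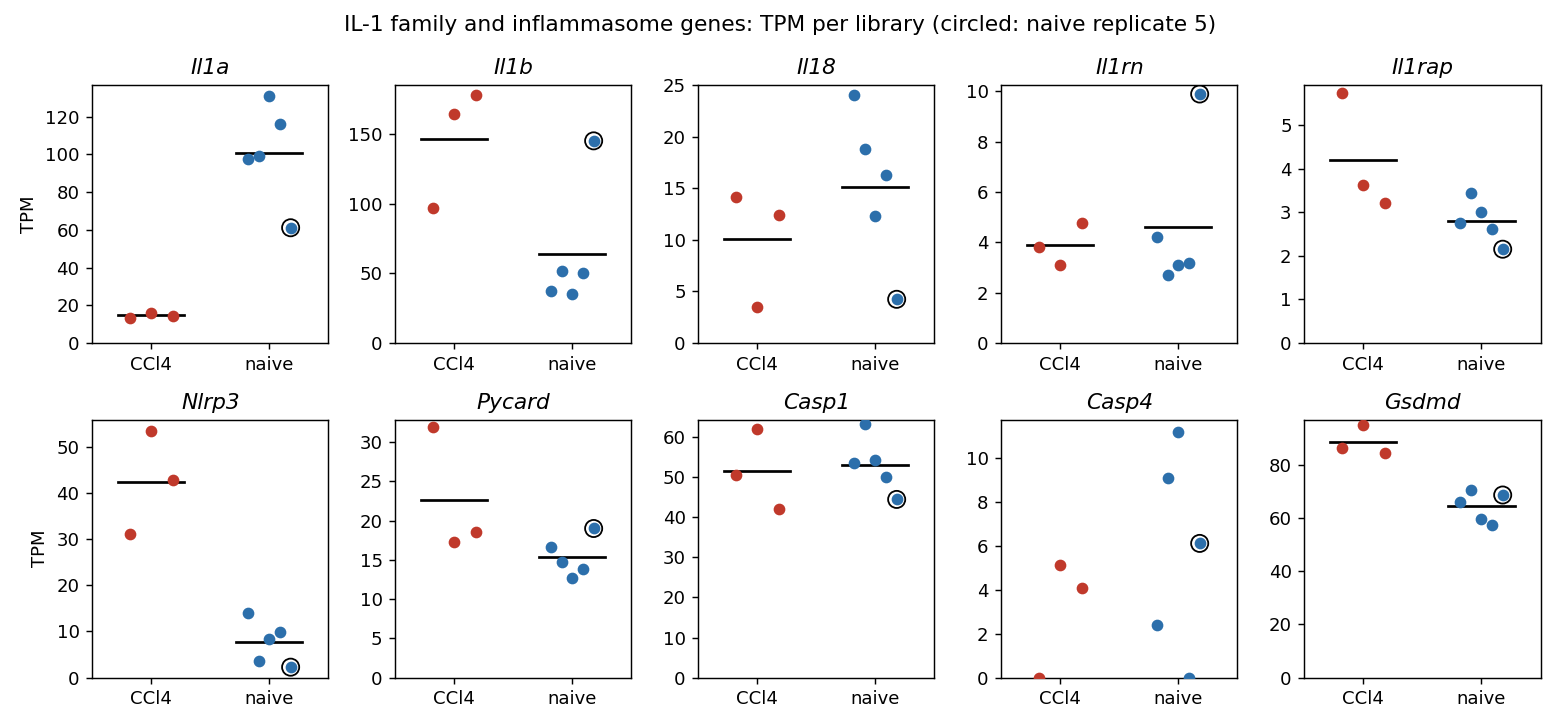
TPM (vertical axis, from 0) of each of the 10 genes in the 3 CCl4 libraries (red) and the 5 naive libraries (blue), with the group mean as a black line and naive replicate 5 circled. No mean is drawn for Casp4, which is listed at 0 in a library. Il1a, Nlrp3 and Gsdmd separate the groups, and the circled library lies with the CCl4 libraries for Il1b.

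Il1a had the smallest adjusted p of the 10 genes. Its level was 13.4, 16.1 and 14.4 TPM in CCl4 replicates 1, 2-4 and 3, against 97.8, 99.1, 131, 116 and 61.1 TPM in naive replicates 1 to 5. Every CCl4 library lay below every naive library, and the lowest naive value, in replicate 5, was still well above the highest CCl4 value. Il1a averaged 14.6 ± 1.39 TPM in CCl4 (SD, n = 3) and 101 ± 26.1 TPM in naive libraries (SD, n = 5), a log2 fold change of -2.67 (SE 0.218, limma adjusted p = 6.75e-06). All 3 of its transcript entries were lower. The curated entry NM_010554.4 held 5.53, 5.04 and 0.0249 TPM in CCl4 replicates 1, 2-4 and 3, against 28.6 to 47.6 TPM in naive libraries (log2 fold change -3.56, adjusted p = 0.00229 in the limma fit to 29401 transcripts). The predicted entries XM_006498793.3 and XM_006498794.3 differed by -2.50 and -1.61. Among naive libraries Il1a peaked in replicate 3 and was least in replicate 5. The endothelial marker sum did the same, at 9632 and 5030 TPM, and its part in the difference was not tested.

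Il1b was higher in CCl4 libraries, but with overlap. Its level was 96.7, 164 and 178 TPM in CCl4 replicates 1, 2-4 and 3, against 37.3, 51.6, 35.4, 50.4 and 145 TPM in naive replicates 1 to 5. Naive replicates 1 to 4 all lay below the lowest CCl4 library, and naive replicate 5 lay between the lowest and the middle one. The means were 146 ± 43.3 TPM in CCl4 (SD, n = 3) and 63.9 ± 45.8 TPM in naive libraries (SD, n = 5), a log2 fold change of 1.35 (95% interval 0.44 to 2.25, limma adjusted p = 0.0236). Without naive replicate 5 the log2 fold change was 1.69 (SE 0.228, limma adjusted p = 0.000181). Leaving out CCl4 replicate 2-4 (1.24, adjusted p = 0.0795 by limma) or CCl4 replicate 3 (1.18, adjusted p = 0.101 by limma) ended this call, which was also lost narrowly after rescaling to protein-coding genes (1.29, adjusted p = 0.0509 by limma).

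Monocyte and immediate early marker sums were also higher in CCl4 libraries, and each ran with Il1b in some libraries and not in others. The monocyte markers summed to 1146, 831 and 801 TPM in CCl4 replicates 1, 2-4 and 3, and to 144 to 173 TPM in naive replicates 1 to 4, with 269 TPM in replicate 5. Among naive libraries the highest monocyte sum and the highest Il1b were both in replicate 5. Among CCl4 libraries the highest sum and the lowest Il1b were both in replicate 1. Of 13 genes of the immediate early and dissociation response, 11 were higher, beside 15.3% of all genes tested. Cells also switch these genes on during isolation. They summed to 4293, 6499 and 6233 TPM in CCl4 replicates 1, 2-4 and 3, and to 2100 to 3004 TPM in naive libraries. Their order over the CCl4 libraries was lowest in replicate 1, as for Il1b, while naive replicate 5 had the lowest sum of all. The part of either list in the Il1b difference was not tested. Of 11 neutrophil markers, from cells that also make IL-1 beta, 3 passed the filter, and the sum over all 11 was 41.3 to 54.7 TPM in CCl4 and 25.6 to 34.0 TPM in naive libraries. Most of this sum came from the receptor genes Csf3r, which was higher (33.5 ± 10.4 TPM in CCl4, SD, n = 3, and 15 ± 3.14 TPM in naive libraries, SD, n = 5; limma adjusted p = 0.00392), and Cxcr2, which did not pass the test. S100a9 passed the filter through naive libraries only, at 0.12 to 0.861 TPM in CCl4 and 0.98 to 4.19 TPM in naive libraries. It was called lower (limma adjusted p = 0.0403), a call lost without naive replicate 5 (limma adjusted p = 0.056). Of the rest, Ly6g was listed at 0 in all 8 libraries, and S100a8 was at most 0.957 TPM in CCl4 and 2.18 TPM in naive libraries. The granule gene Mmp8 was at 0.354 to 1.79 TPM in CCl4 and 0.0331 to 0.309 TPM in naive libraries. Mpo lay the other way with overlap, at 0 to 0.126 TPM in CCl4 and 0 to 2.34 TPM in naive libraries. Elane, Camp, Ltf and Retnlg were at most 0, 1.56, 0.411 and 1.63 TPM in CCl4 libraries. In naive libraries they were at most 0.209, 0.985, 1.1 and 0.288 TPM. The part of neutrophils in the Il1b difference was not tested.

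Set together, the agonist pair changed in make-up more than in total. The summed level of Il1a and Il1b was 110, 180 and 192 TPM in CCl4 replicates 1, 2-4 and 3, against 135, 151, 166, 167 and 206 TPM in naive replicates 1 to 5, and the groups overlapped. Il1b made up 87.8%, 91.0% and 92.5% of this sum in the CCl4 libraries, against 27.6%, 34.2%, 21.3% and 30.2% in naive replicates 1 to 4 and 70.3% in naive replicate 5. The share did not overlap between groups. It was computed after the values of both genes had been seen and carries no test.

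**Figure D2:**
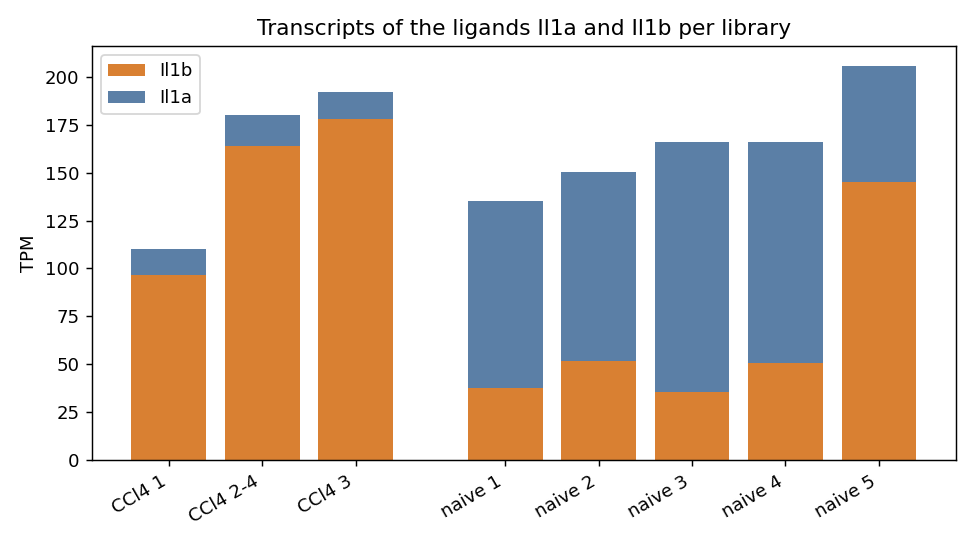
Stacked TPM of Il1b (orange, below) and Il1a (blue, above) in each CCl4 and naive library, with a vertical axis from 0. The totals overlap between groups, and Il1a makes up most of the bar in naive replicates 1 to 4 and little of it in the CCl4 libraries.

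Il18 (chr9:50554700-50581841), the remaining ligand gene, did not pass the test. Its level was 14.2, 3.51 and 12.4 TPM in CCl4 replicates 1, 2-4 and 3, against 24.0, 18.8, 12.3, 16.3 and 4.23 TPM in naive replicates 1 to 5. The lowest value of each group, in CCl4 replicate 2-4 and naive replicate 5, lay far below the rest of its group, and the groups overlapped. The log2 fold change was -0.56 with an interval of -1.69 to 0.58, which holds both a marked fall and a modest rise (limma adjusted p = 0.43), and it was -0.92 without naive replicate 5 (limma adjusted p = 0.0802). The files held 3 of the 8 Il18 transcripts in the RefSeq table, so its sum may be incomplete too. The ratio of Il1b to Il18 was 6.83, 46.6 and 14.3 in CCl4 replicates 1, 2-4 and 3, against 1.56 to 3.08 in naive replicates 1 to 4 and 34.2 in naive replicate 5.

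Il1rn (chr2:24336860-24351491) encodes the antagonist that occupies IL1R1 without signalling, and it was low in both groups. It was listed at 3.83, 3.10 and 4.78 TPM in CCl4 replicates 1, 2-4 and 3, against 4.22, 2.68, 3.11, 3.18 and 9.89 TPM in naive replicates 1 to 5. The groups overlapped, and the highest value, in naive replicate 5, was from the naive library that was also highest in Il1b. The log2 fold change was -0.08 (interval -0.81 to 0.64, limma adjusted p = 0.868), and without naive replicate 5 it was 0.19. The transcript-level fit gave -1.03 (adjusted p = 0.257 by limma) for NM_001039701.3 alone. Antagonist transcripts per agonist transcript (Il1rn over Il1a plus Il1b) were 0.0348, 0.0172 and 0.0249 in CCl4 replicates 1, 2-4 and 3, against 0.0178 to 0.0313 in naive replicates 1 to 4 and 0.0481 in naive replicate 5, and overlapped too. The Il1rn entry with the most TPM was NM_001039701.3 in all libraries but CCl4 replicate 3, where it was listed at 0 and NM_031167.5 at 4.78 TPM. At this level the split is an estimate whose error the files do not give.

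Il1rap (chr16:26581509-26730128), the shared co-receptor, was low as well, at 5.74, 3.62 and 3.20 TPM in CCl4 replicates 1, 2-4 and 3, against 2.15 to 3.44 TPM in naive libraries. The groups overlapped by CCl4 replicate 3 alone. Its log2 fold change was 0.43 (interval -0.02 to 0.88, limma adjusted p = 0.12). It passed the test after median-of-ratios rescaling (0.50, adjusted p = 0.0312 by limma) and quantile normalization (0.64, adjusted p = 0.013 by limma).

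Nlrp3 showed the largest rise. Its level was 31.1, 53.3 and 42.8 TPM in CCl4 replicates 1, 2-4 and 3, against 14.1, 3.59, 8.30, 9.83 and 2.27 TPM in naive replicates 1 to 5. Every CCl4 library lay above every naive one, and naive replicate 5, high in Il1b, was the lowest of all in Nlrp3. The means were 42.4 ± 11.1 TPM in CCl4 (SD, n = 3) and 7.61 ± 4.79 TPM in naive libraries (SD, n = 5), a log2 fold change of 2.51 (SE 0.445, limma adjusted p = 0.00119). Its listed transcripts both rose: the curated entry NM_145827.3 by 2.56 (SE 0.348, adjusted p = 0.00111 in the transcript fit by limma) and the predicted entry XM_006532858.1 by 2.27 (SE 0.671, adjusted p = 0.0437 by limma). The files held 2 of the 5 Nlrp3 transcripts in the RefSeq table, so its sum may be incomplete. The curated entry held 14.7, 33.3 and 22.0 TPM in CCl4 replicates 1, 2-4 and 3, against 1.59 to 5.08 TPM in naive libraries. The predicted entry was less even among naive libraries, at 8.99, 0.399, 6.27, 6.14 and 0.683 TPM in replicates 1 to 5, against 16.3 to 20.8 TPM in CCl4 libraries.

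Pycard (chr7:127991373-127993867) encodes ASC, the adaptor between sensor and caspase. It was at 31.9, 17.3 and 18.6 TPM in CCl4 replicates 1, 2-4 and 3, against 16.7, 14.7, 12.7, 13.9 and 19.0 TPM in naive replicates 1 to 5. Its high CCl4 mean rested on replicate 1. That library also had the largest macrophage marker sum of the CCl4 libraries, 6086 TPM over 7 genes, against 2461 and 3555 TPM in replicates 2-4 and 3. Lyz2 alone held 4858 TPM of the 6086 TPM, and the part of macrophage RNA in the Pycard value was not tested. The log2 fold change of Pycard was 0.49 (interval 0.02 to 0.96, limma adjusted p = 0.0982), and without CCl4 replicate 1 it was 0.22. It passed the test under quantile normalization (0.64, adjusted p = 0.0422 by limma).

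Casp1 (chr9:5298517-5307281), the caspase that matures IL-1 beta and IL-18, had the smallest log2 fold change of the 10 genes. Its single transcript was at 50.6, 61.9 and 41.9 TPM in CCl4 replicates 1, 2-4 and 3, against 53.4, 63.2, 54.3, 49.9 and 44.4 TPM in naive replicates 1 to 5. The ranges nearly coincided. The log2 fold change was -0.05 with an interval of -0.41 to 0.30, so a difference of more than that size is outside the interval (limma adjusted p = 0.832). The sign turned to 0.04 after median-of-ratios rescaling and to 0.05 under quantile normalization, and it was 0.08 without CCl4 replicate 3.

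Casp4 (chr9:5308849-5336791) lies next to Casp1 on chromosome 9, with 1567 bases between the genes. It was listed at 0, 5.13 and 4.07 TPM in CCl4 replicates 1, 2-4 and 3, and at 2.38, 9.11, 11.2, 1.64e-05 and 6.12 TPM in naive replicates 1 to 5. A library of each group was thus at or next to 0, which can be a failed estimate, and the values say little on direction. The log2 fold change was -0.66 with an interval of -2.46 to 1.15 (limma adjusted p = 0.568), and 0.17 without CCl4 replicate 1. The files held 2 of the 8 Casp4 transcripts in the RefSeq table, so its sum may be incomplete.

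Gsdmd (chr15:75862144-75867408), the substrate of both caspases, was higher by a small step in CCl4 libraries. Its level was 86.3, 95 and 84.3 TPM in CCl4 replicates 1, 2-4 and 3, against 66.0, 70.4, 59.5, 57.2 and 68.6 TPM in naive replicates 1 to 5. The groups did not overlap, and naive replicate 5 lay among the other naive libraries. The means were 88.5 ± 5.71 TPM in CCl4 (SD, n = 3) and 64.4 ± 5.75 TPM in naive libraries (SD, n = 5), a log2 fold change of 0.46 (SE 0.124, limma adjusted p = 0.0142). Leaving out CCl4 replicate 2-4 ended the call (0.41, adjusted p = 0.0545 by limma).

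**Figure D3:**
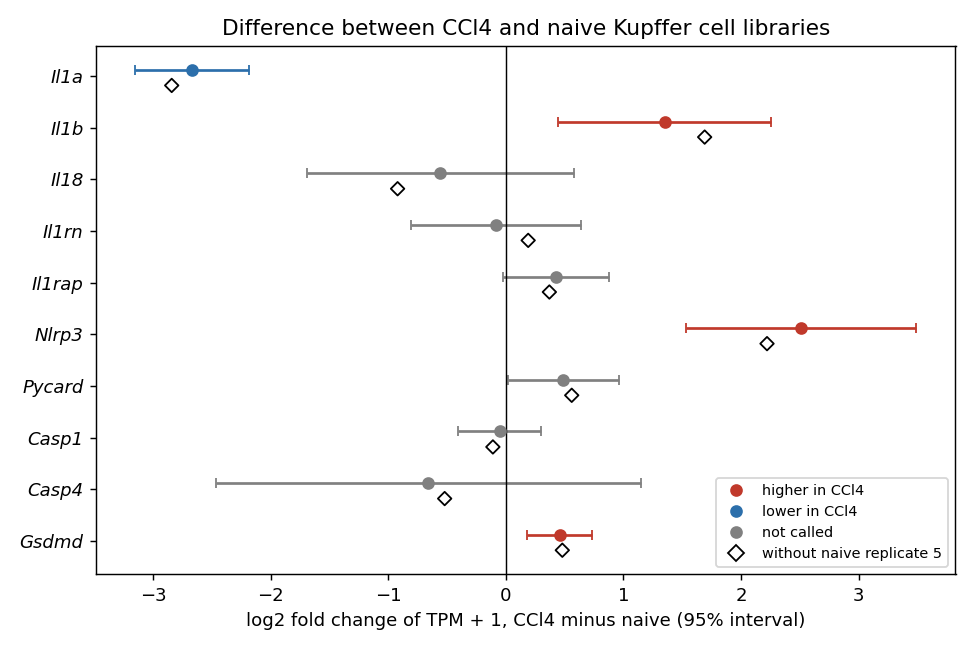
Log2 fold change of TPM + 1, CCl4 minus naive (horizontal axis), for the 10 genes, with 95% intervals from limma as bars and the value without naive replicate 5 as open diamonds. Il1a lies left of 0, Il1b, Nlrp3 and Gsdmd lie right of it, and the diamonds of Il1rn and its main value lie on opposite sides of 0.

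In the order of mean level, the CCl4 libraries held Il1b at 146, Gsdmd at 88.5, Casp1 at 51.5, Nlrp3 at 42.4 and Pycard at 22.6 TPM, and then Il1a at 14.6, Il18 at 10, Il1rap at 4.19 and Il1rn at 3.90 TPM. Casp1 and Nlrp3 differed there by less than their spread, as did Il1a and Il18, and Il1rap and Il1rn. Casp4, at or next to 0 in a library of each group, has no place in these orders. The naive libraries began with Il1a at 101 TPM, followed by Gsdmd at 64.4, Il1b at 63.9, Casp1 at 53.1, Pycard at 15.4, Il18 at 15.1, Nlrp3 at 7.61, Il1rn at 4.62 and Il1rap at 2.79 TPM. Neighbours in the naive order such as Gsdmd and Il1b, or Pycard and Il18, differed by less than their spread. The place of Il1b above Casp1 rested on naive replicate 5. Over naive replicates 1 to 4 Il1b averaged 43.7 TPM and Casp1 55.2 TPM.

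Of the 10 genes, 5 had at least 2 transcripts averaging 1 TPM or more, and the share of the most abundant one was compared by exact permutation (two-sided, 56 splits). For Il1b the curated entry NM_008361.4 made up 84.0%, 81.1% and 84.0% in CCl4 replicates 1, 2-4 and 3, against 85.3%, 90.2%, 89.3%, 89.0% and 87.7% in naive replicates 1 to 5. Every CCl4 share lay below every naive share, a difference of -5.24 percentage points (exact permutation p = 0.0357, the smallest this design allows; 0.179 adjusted over the 5 genes). Il18 differed by -13.1 points (exact permutation p = 0.0714, adjusted 0.179). For Il1a, Nlrp3 and Gsdmd the differences were 3.22, 2.40 and -2.02 points (adjusted exact permutation p = 0.848, 0.857 and 0.848), with the share of the Nlrp3 entry running from 24.4% to 88.9% among naive libraries.

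**Figure D4:**
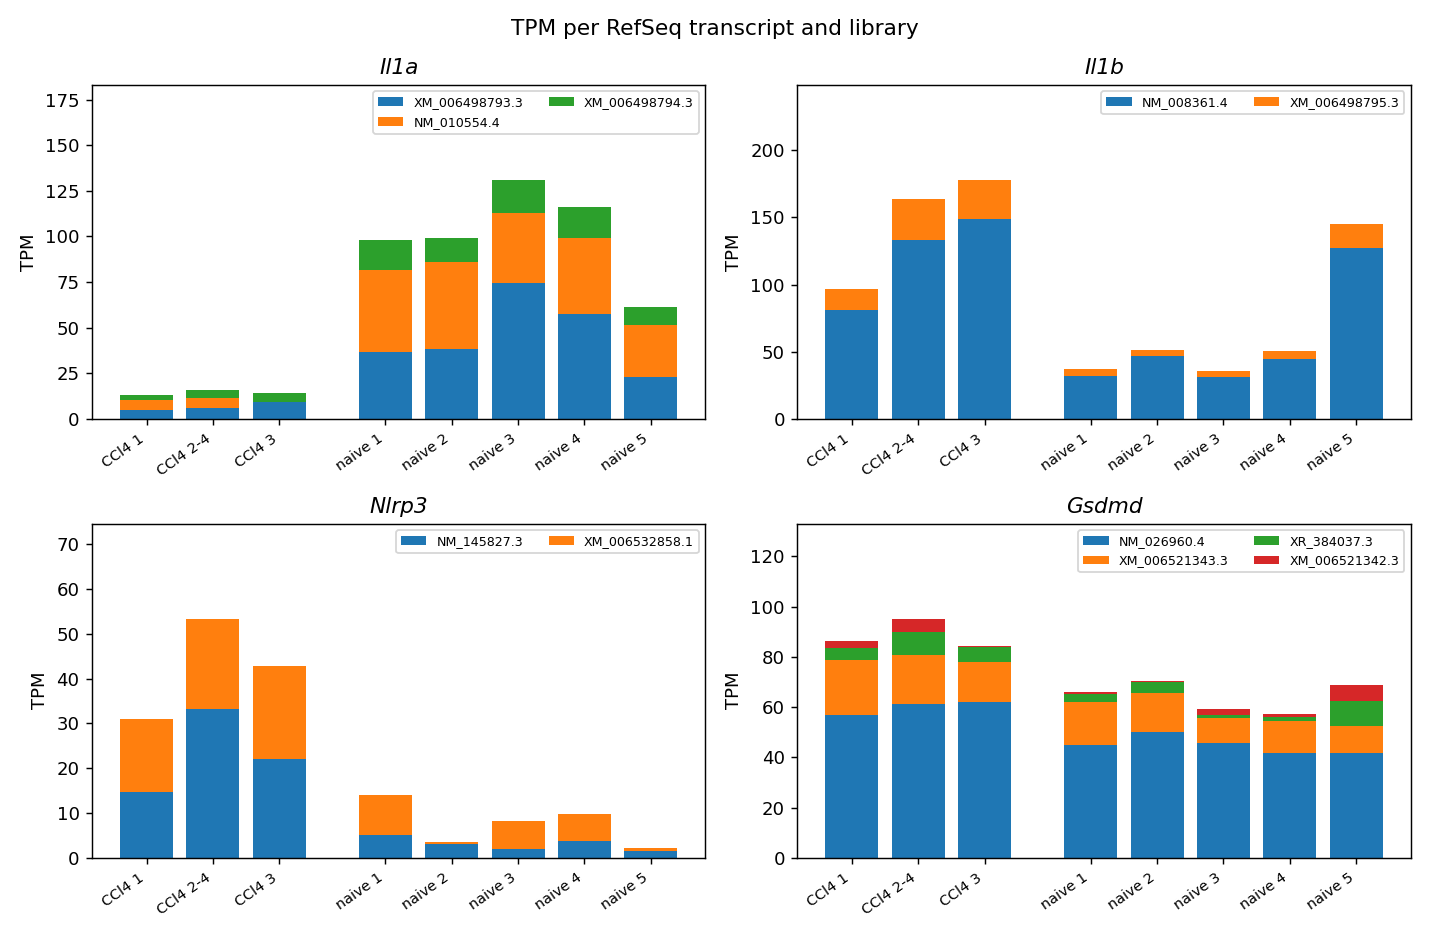
TPM per RefSeq transcript (stacked colours) of Il1a, Il1b, Nlrp3 and Gsdmd in each CCl4 and naive library, with vertical axes from 0. All entries of Il1a are low in CCl4 libraries, and both Nlrp3 entries are high there.

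The rest of the pathway was read from 5 lists of 48 genes, 43 of which were tested. Over these lists 16 genes were higher in CCl4 libraries and 9 lower, and 18 were not called, beside 15.3% higher and 22.5% lower over all genes tested. The lists were chosen with earlier results known, and their counts are descriptions. In 7 of the 43 genes fewer than 3 libraries of a group reached 1 TPM, so that the gene passed the filter through the other group alone and the filter itself favours a difference. Of the 10 genes described above, Casp4 is such a gene. In the lists these are Il33, Il1r2, Nlrp6, Naip1, Casp12, Gsdme and Brcc3. Among the other 36 genes 14 were higher and 5 lower. Without CCl4 replicate 1 the number higher over all 43 was 10.

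Among the other receptors 3 of 7 were higher and 1 lower, beside 15.3% higher and 22.5% lower over all genes tested. The median log2 fold change of these receptors was 0.71. Il1r1, the signalling receptor for both IL-1 forms, was at 1.28, 3.13 and 2.74 TPM in CCl4 replicates 1, 2-4 and 3, against 15.8, 22.9, 39.6, 30.1 and 10 TPM in naive replicates 1 to 5. Il1r2, a decoy receptor that binds IL-1 without signalling, was at 10, 32.7 and 25.3 TPM in CCl4 replicates 1, 2-4 and 3, against 0.714, 0.696, 1.16, 0.996 and 3.14 TPM in naive replicates 1 to 5. Neither gene's groups overlapped, and they moved in opposite directions. Il1r1 fell by 2.77 (SE 0.385, limma adjusted p = 0.000239), and Il1r2 rose by 3.28 (SE 0.386, limma adjusted p = 7.66e-05). Il1r2 reached 1 TPM in 2 of 5 naive libraries and so passed the filter through the CCl4 libraries; in the limma fit without a filter its adjusted p was 0.000943. Decoy transcripts per signalling receptor transcript were 7.81, 10.4 and 9.24 in CCl4 replicates 1, 2-4 and 3, against 0.0292 to 0.0453 in naive replicates 1 to 4 and 0.314 in naive replicate 5. Il1r1 shared with Il1a, and with the endothelial marker sum, a naive peak in replicate 3 and a naive minimum in replicate 5, and the part of that cell type was not tested. Il1rl1, the receptor for IL-33, was higher at 6.31 ± 1.71 TPM in CCl4 (SD, n = 3) and 1.53 ± 0.283 TPM in naive libraries (SD, n = 5), and Il18rap, the IL-18 co-receptor, rose by 0.84 (limma adjusted p = 0.0228; 0.101 without CCl4 replicate 2-4 and 0.0522 without naive replicate 4).

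Of 7 other ligand and binding protein genes 3 were tested, and Il18bp and Il33 were lower, beside 22.5% of all genes tested. Il18bp, whose secreted protein neutralises IL-18, was at 52.3, 21.8 and 34.5 TPM in CCl4 replicates 1, 2-4 and 3, against 176, 185, 97.7, 124 and 120 TPM in naive replicates 1 to 5. It fell by 1.97 (SE 0.282, limma adjusted p = 0.000294), without overlap. Il33, an alarm cytokine of barrier and endothelial cells, was at most 0.769 TPM in CCl4 libraries, against 1.55 to 6.27 TPM in naive ones. No CCl4 library reached the filter, so its call follows in part from that choice, and the limma fit with no filter gave -1.68 (adjusted p = 0.00779). The other 4 were listed at 0 in all libraries.

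Of 11 genes that signal below the receptors, 3 were higher and 1 lower, beside 15.3% higher and 22.5% lower over all genes tested. Irak2, a kinase of the receptor complex, averaged 65.8 ± 7.61 TPM in CCl4 (SD, n = 3) and 24.7 ± 2.83 TPM in naive libraries (SD, n = 5), a rise of 1.38 (limma adjusted p = 2.99e-05). Irak4, its partner kinase, and Tab1, a subunit of the TAK1 kinase complex, rose by 0.55 and 0.53 (limma adjusted p = 0.00767 and 0.0202), and the Tab1 call was lost without CCl4 replicate 1 or naive replicate 4 (0.0784 and 0.0545). Tollip, an adaptor known to restrain the pathway, fell by 0.69 (limma adjusted p = 0.0252), a call lost without CCl4 replicates 2-4 or 3 or naive replicates 2 or 3. Myd88 encodes the adaptor used by the signalling receptors of this family. It was at 62.6 ± 6.88 TPM in CCl4 (SD, n = 3) and 45.4 ± 9.31 TPM in naive libraries (SD, n = 5). Myd88 missed the threshold (limma adjusted p = 0.0502), and without naive replicate 5 it passed (limma adjusted p = 0.00618).

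Of the inflammasome sensors other than Nlrp3, 7 of 10 tested were higher and 2 lower, beside 15.3% higher and 22.5% lower over all genes. Both lower ones, Nlrp6 and Naip1, passed the filter through the naive libraries alone. Without CCl4 replicate 1 the count of higher sensors was 4. Nlrp1b averaged 67.9 ± 8.17 TPM in CCl4 (SD, n = 3) and 20.9 ± 8.60 TPM in naive libraries (SD, n = 5), a rise of 1.72 (limma adjusted p = 0.000285), with 36.2 TPM in naive replicate 5 and 16.0 to 18.6 TPM in the others. Nlrc4, which works with the NAIP receptors for bacterial flagellin and secretion proteins, rose by 1.01 (limma adjusted p = 0.000972), and Aim2, a sensor of double-stranded DNA in the cytosol, by 0.72 (limma adjusted p = 0.0153), which was lost without CCl4 replicate 1 or 2-4 (0.0522 and 0.0718). Nlrp1a rose by 0.84 (limma adjusted p = 0.00554). Naip5 and Naip6 rose by 0.55 and 0.73 (limma adjusted p = 0.0163 and 0.00928). Naip1 was at 0.515 to 1.04 TPM in CCl4 and 0.957 to 2.37 TPM in naive libraries (log2 fold change -0.73, limma adjusted p = 0.0254, and 0.0463 with no filter). The Naip5 call was lost without CCl4 replicate 1 (0.0598) and that of Naip1 without CCl4 replicate 1 or 2-4 or naive replicate 1, 2 or 4 (0.0523 to 0.0949). The NAIP genes, and Nlrp1a with Nlrp1b, are close copies of each other, so the split of reads among them is uncertain. Mefv, which encodes pyrin, rose by 1.0 with overlap (limma adjusted p = 0.0388), a call that was lost without CCl4 replicate 1 or 3 and without any of naive replicates 1 to 4 (adjusted p = 0.0646 to 0.159 by limma). Nlrp6 was at 0.767 ± 0.0673 TPM in CCl4 (SD, n = 3), below the filter in every library, and at 4.43 ± 1.38 TPM in naive libraries (SD, n = 5), and the limma fit with no filter gave -1.58 (adjusted p = 0.00303).

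Around the inflammasome, 3 of 12 regulator and effector genes were higher and 3 lower, of which Gsdme and Casp12 passed the filter through 1 group alone. These counts are near the shares over all genes tested, 15.3% higher and 22.5% lower. P2rx7, the ATP-gated channel whose opening triggers NLRP3, averaged 44.7 ± 6.94 TPM in CCl4 (SD, n = 3) and 26.3 ± 6.54 TPM in naive libraries (SD, n = 5), a rise of 0.77 (limma adjusted p = 0.0144; 0.0603 without CCl4 replicate 1). Panx1, a channel that releases ATP, rose by 0.82. Gsdme, a gasdermin cut by other caspases, was at 1.07 to 3.43 TPM in CCl4 and 0.691 to 0.813 TPM in naive libraries, none of which reached the filter, and the limma fit with no filter gave 0.85 (adjusted p = 0.0275). Txnip, a thioredoxin-binding protein linked to NLRP3, was at 226 ± 32.5 TPM in CCl4 (SD, n = 3) and 599 ± 178 TPM in naive libraries (SD, n = 5), a fall of 1.35 (limma adjusted p = 0.00228). Ninj1, which mediates rupture of the plasma membrane after pore formation, fell by 1.45 (SE 0.213, limma adjusted p = 0.000352), against the rise of Gsdmd by 0.46. Casp12 was at 1.0 ± 0.172 TPM in CCl4 (SD, n = 3) and 3.98 ± 0.171 TPM in naive libraries (SD, n = 5), and the limma fit with no filter gave -1.32 (adjusted p = 0.000357). Nek7, a kinase that binds NLRP3, and Casp8 stayed uncalled, at 0.11 and 0.00 (limma adjusted p = 0.636 and 0.996).

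**Figure D5:**
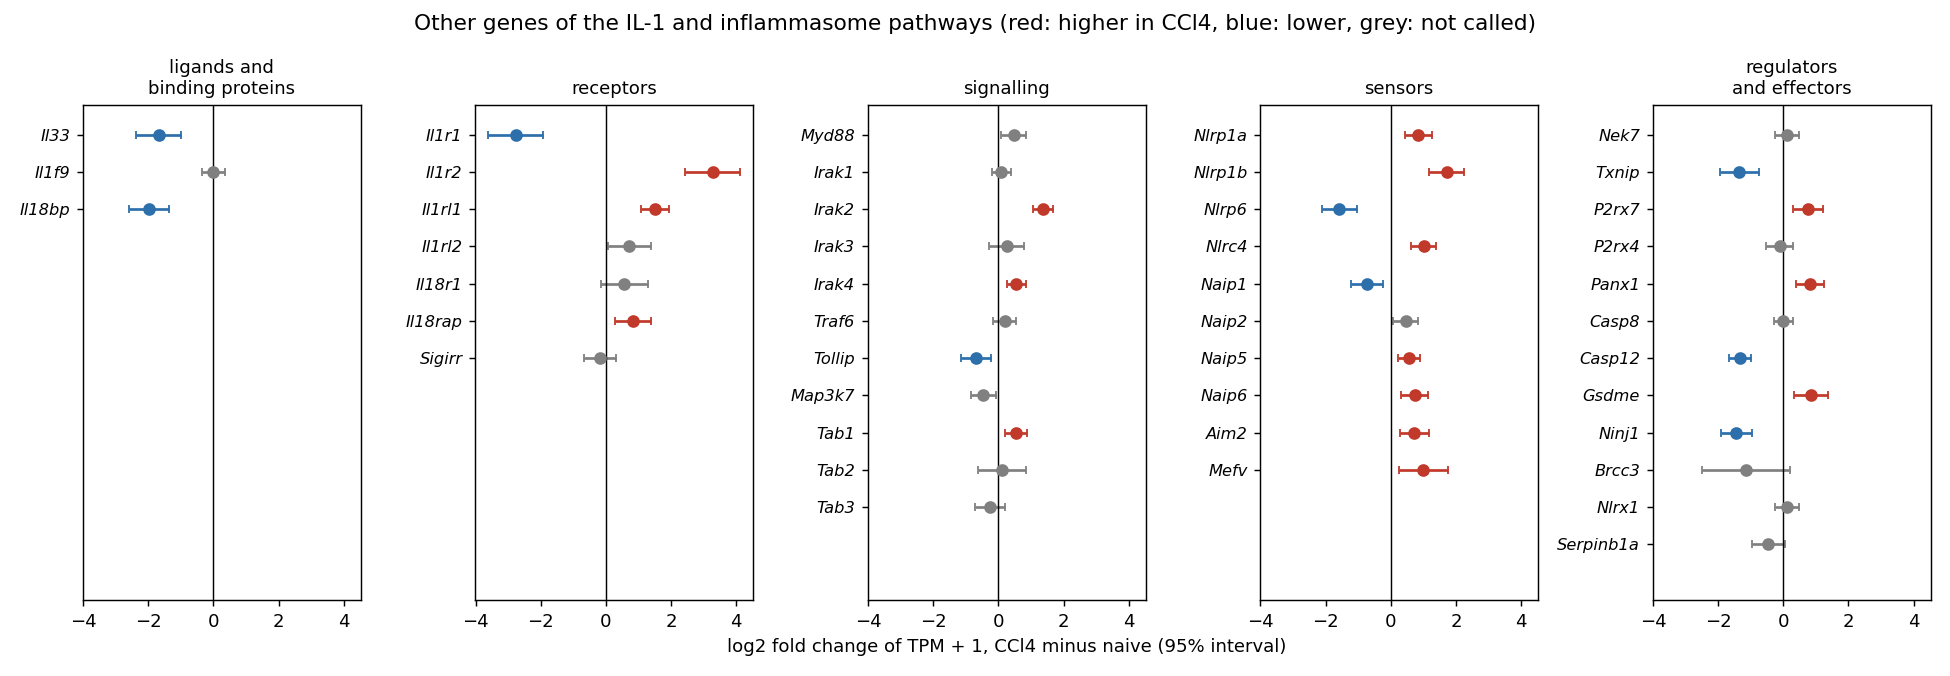
Log2 fold change of TPM + 1, CCl4 minus naive (horizontal axis), with 95% limma intervals, for the 43 tested genes of the 5 lists. Red marks genes higher in CCl4, blue lower and grey not called; Il1r1 and Il1r2 stand at the opposite ends of the receptor panel, and most sensors lie right of 0.

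The genes with the profile most like that of Il1b over the 8 libraries were Slamf8, Nr4a3, Wdfy4, Mthfd2 and Bcl2a1a, by the smallest Euclidean distance of centred log2(TPM + 1) values among 7936 genes averaging at least 10 TPM. The distances were 0.72, 0.85, 0.88, 0.93 and 0.93. Slamf8, a receptor of myeloid cells, was nearest, at 21.2, 37.2 and 25.2 TPM in CCl4 replicates 1, 2-4 and 3, against 7.10 to 9.69 TPM in naive replicates 1 to 4 and 21.4 TPM in naive replicate 5. Since the 5 genes were chosen for likeness to Il1b over these libraries, a high value in naive replicate 5 follows from the choice. Bcl2a1a has close copies in the genome, so its value is uncertain.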

How the data were processed

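RNA from isolated Kupffer cells was profiled in 3 CCl4 and 5 naive libraries. The authors deposited TPM for single RefSeq transcripts, as the file headers show. Kallisto 0.42.4 and the build GRCm38 are named per the submitters' processing notes. Neither the index nor the isolation of the cells is stated there. Since TPM carry no read number, depth is unknown and errors rest on the variation among libraries. Each library summed to 999999 to 1000001 TPM.

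A RefSeq gene table of GRCm38.p6 gave a gene to 86722 of 107384 transcripts by accession without version. The other 20662 held 6.06% to 7.58% of TPM and were left out. The 7SL and 7SK RNA genes held 32.5% to 40.9% of TPM in CCl4 and 33.6% to 45.0% in naive libraries, so rescaled values were also fitted. The 15629 genes that reached 1 TPM in 3 or more libraries entered a limma 3.58.1 fit (R 4.3.3) of log2(TPM + 1) on group alone, with a mean-variance trend. P-values were adjusted by Benjamini-Hochberg over all of them, and 0.05 was the threshold. The fit was tested on simulated data. Transcript shares were compared by exact permutation tests. No pair of libraries shared more than 1 identical value above 0 among these genes.

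The members, gene lists and tests were chosen with earlier results of these data known. All 10 members are named. From the pathway lists any gene could be named, from the marker lists the most abundant 3, and beside these the 5 genes nearest to Il1b. Clec4f, Lyz2, Csf3r and Cxcr2 are among those 3, as is S100a9. S100a8, Ly6g, Mmp8, Mpo, Elane, Camp, Ltf and Retnlg were chosen after seeing values. So were the sum of Il1a and Il1b, the Il1b share of it, and the ratios of Il1r2 to Il1r1 and of Il18bp to Il18. The alternatives changed the pseudocount, the filter, the scaling, the variance model or the transcript matching, added a replicate block, or left out each library in turn.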

Additional observations from a re-analysis of the deposited data

Results flagged for a closer look

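In the naive group, a library was counted as apart where its gap to the nearest other library was more than 0.71 of the group's range, which chance gives in about 1 of 20 groups. Of 65 sets of naive values examined, 12 had such a library, and in 10 of these it was naive replicate 5. The sets share libraries and genes and are not independent.

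Among the genes named by the report, naive replicate 5 was high in Il1b (145 TPM, against 35.4 to 51.6 in the other naive libraries), in Il1rn (9.89 TPM, against 2.68 to 4.22), in Il1r2 (3.14 TPM, against 0.696 to 1.16), in Nlrp1b (36.2 TPM, against 16.0 to 18.6) and in Gsdme (0.813 TPM, against 0.691 to 0.720). It was low in Map3k7, the kinase TAK1 (14.8 TPM, against 20.6 to 21.8). Its Il1b share of Il1a plus Il1b was 70.3%, against 21.3% to 34.2%, its ratio of Il1b to Il18 was 34.2, against 1.56 to 3.08, its ratio of Il1r2 to Il1r1 was 0.314, against 0.0292 to 0.0453, and its ratio of Il18bp to Il18 was 28.3, against 7.36 to 9.83.

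Naive replicate 2 was high in Tab3 (4.52 TPM, against 2.41 to 2.91), and naive replicate 3 was low in Naip1 (0.957 TPM, against 2.11 to 2.37). The CCl4 group, with 3 libraries, was too small for this comparison.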

How the results depend on the processing

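Il1a stayed lower and Nlrp3 higher, past the threshold, under all 21 alternatives, with log2 fold changes of -3.56 to -2.40 and 1.66 to 2.77. The 1.66 came from the replicate block, whose limit is given below. Il1b stayed positive, at 1.18 to 1.82, and lost its call under 6 of 21. Among them were no filter (1.35, adjusted p = 0.0669 by limma) and rescaling without 7SL and 7SK RNA (1.27, limma adjusted p = 0.052). The transcript-level fit of the curated Il1b entry was another (1.26, limma adjusted p = 0.0775). The predicted Il1b entry rose by 1.74 in that fit and passed (limma adjusted p = 0.0225). Il1rn turned positive under quantile normalization (0.13), library weights (0.12), the replicate block (0.19) and without CCl4 replicate 2-4 (0.04) or naive replicate 5 (0.19), with a range of -0.21 to 0.19 when leaving out 1 library, while the transcript-level fit gave -1.03 (adjusted p = 0.257 by limma). Casp1 turned positive under median-of-ratios rescaling (0.04) and quantile normalization (0.05), and ran from -0.19 to 0.08 when leaving out 1 library. Casp4 ran from -1.23 to 0.17 in the same way, and was 0.17 without CCl4 replicate 1. Il18 was 0.27 with accessions matched with version, which leaves out its curated entry. The number of members higher was 5 with quantile normalization and 1 to 3 when leaving out 1 library. Of the pathway lists, 10 genes were higher with accessions matched with version and 10 to 17 when leaving out 1 library, and 5 were lower both with the filter of 5 TPM and with matched versions, each of which tests fewer genes. With no filter the calls of Il18rap, Tollip and Mefv were lost (limma adjusted p = 0.0563, 0.0522 and 0.0909). Aim2 and Mefv lost theirs with matched versions (limma adjusted p = 0.163 and 0.0519), and Naip1 with quantile normalization (limma adjusted p = 0.105). Both rescalings, to protein-coding genes and without 7SL and 7SK RNA, also ended the Mefv call (limma adjusted p = 0.0671 and 0.0697). Over the whole table quantile normalization, under which the median of all genes moved to 0.11, called 4011 genes higher, against 2393; the cause was not tested. When leaving out 1 library, the CCl4 minus naive difference in transcript share ranged from -5.64 to 7.87 points for Il1a. For Nlrp3 it ranged from -4.35 to 11.8 points. With only matched versions no share could be computed.

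The replicate numbers share no stated origin, and deviations of same-numbered libraries correlated at 0.08 and -0.04. Only numbers 1 and 3 occur in both groups. The fit with the replicate block therefore takes its group difference from the libraries with those numbers alone, and its values are less secure than the others. With the replicate block, 8 pathway genes were higher, 2 members were lower (Casp4, -1.51, joined Il1a) and Gsdmd lost its call (0.44, limma adjusted p = 0.282).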
